A study of Homo sapiens with 4 samples.

Results

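The TRAIL and death receptor genes were read from a gene count table of HCC1954 cells as the rows whose symbol is that of the ligand TNFSF10, the receptors TNFRSF10A, TNFRSF10B, TNFRSF10D and FAS, the signalling genes FADD, CASP8, CASP10 and CFLAR, or XAF1. All 10 symbols were found among the 58735 genes of the table, and all 10 had counts high enough to be tested. HCC1954, an established line of human breast cancer cells, has amplified ERBB2. Each of the 2 groups had 2 samples of total RNA. The control group, shCON, carried a scrambled short hairpin RNA in the GIPZ lentiviral vector, and the other group, shZDHHC15, carried a GIPZ hairpin against the palmitoyltransferase gene ZDHHC15. The labels speak both of a stable knockdown and of transient transfection with harvest after 36 h. They do not say whether the samples numbered 1 and 2 came from separate cultures, clones or hairpins, so p-values measure only the spread between these samples, which may be technical.

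TRAIL, the protein of TNFSF10, is a ligand of the tumour necrosis factor family. It can trigger apoptosis by binding the death receptors encoded by TNFRSF10A and TNFRSF10B, while TNFRSF10C and TNFRSF10D encode decoy receptors that bind the ligand but lack a complete death domain. FAS is the receptor of the related Fas ligand. Engaged receptors recruit the adaptor FADD, which gathers the initiator caspases encoded by CASP8 and CASP10, and the caspase-like protein of CFLAR (c-FLIP) joins the same complex and limits their activation. XAF1 encodes a protein that binds and antagonises XIAP, an inhibitor of the caspases that carry out cell death. TNFSF10 and XAF1 are known as interferon-inducible genes in many cell types.

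The comparison asked how the transcripts of this pathway differed in ZDHHC15-depleted cells. The ligand gene TNFSF10 and the XIAP antagonist gene XAF1 rose 25.8-fold and 53.6-fold. CASP10, CASP8, FAS and CFLAR rose by smaller amounts, between 1.52-fold and 3.01-fold. The decoy receptor gene TNFRSF10D fell 2.10-fold. The main TRAIL death receptor genes TNFRSF10A and TNFRSF10B and the adaptor gene FADD did not pass the test. In all, 6 of 10 members were called higher and 1 was called lower at an adjusted p under 0.05 (quasi-likelihood F-test of edgeR, Benjamini-Hochberg adjusted over 15817 genes). Over all genes tested, 21.7% were called higher and 20.3% lower, or 42% in either direction. The median log2 fold change of the members was 0.68, against 0.02 over all genes tested. The members were chosen with earlier results of these data known, so these counts and this median only describe the list.

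The samples held between 17560982 and 19118704 counts on genes, with TMM scaling factors between 0.962 and 1.03. The targeted gene ZDHHC15 had 17617 and 15716 counts in the shCON samples and 0 in both shZDHHC15 samples, which is at least 6045-fold lower against a floor of 3 counts per sample. The floor covers counting error only, and what brought the counts to 0 was not tested. Samples of the same group differed by more than counting noise, with a chi-square of 8.32 (shCON) and 6.79 (shZDHHC15) per degree of freedom. Of the epithelial and ERBB2 amplicon markers, all 7 were detected, although their summed level was lower in the shZDHHC15 samples (10256 and 10306 CPM, counts scaled by TMM to library size) than in the shCON samples (16524 and 17729 CPM). KRT8 (from 6058 to 1969 CPM) and KRT18 (from 1642 to 548 CPM) carried most of that fall, while KRT19 rose by 0.44 on the log2 scale (adjusted p = 0.0115 by edgeR) and CDH1 was not called (-0.05, 95% interval -0.23 to 0.14). EPCAM, GRB7 and ERBB2 were also called lower, at -0.35, -0.39 and -0.24 (adjusted p = 0.00608, 0.00178 and 0.0332 by edgeR). Of 17 leukocyte markers, whose cells often express TNFSF10, FAS and CASP10, 8 had 0 counts in every sample, CD3D, CD3E and MS4A1 among them. PTPRC had between 1 and 4 counts. The summed level of the list was 11.1 and 13.1 CPM in shCON and 7.04 and 7.44 CPM in shZDHHC15, and most of it came from CSF1R, which fell. CD8A also fell, from 22 and 21 to 14 and 5 counts (adjusted p = 0.0493 by edgeR). CD14 rose from 9 and 5 to 25 and 22 counts (adjusted p = 0.0159 by edgeR). Of 8 fibroblast markers 5 were at or under 3 counts in every sample, DCN and LUM among them, and the list summed to 33.2 and 26.3 CPM in shCON and 41.0 and 37.1 CPM in shZDHHC15. FAP and COL1A1 held most of these sums. COL1A1 rose by 0.65 on the log2 scale (adjusted p = 0.0232 by edgeR), and FAP was not called (0.32, adjusted p = 0.104 by edgeR). The 8 endothelial markers, of which EMCN was at 0 and ERG at no more than 2 counts, summed to 57.6 and 57.7 CPM in shCON and to 108 and 102 CPM in shZDHHC15. PECAM1 and CDH5, which rose by 2.91 and 0.65 on the log2 scale, held most of that sum in shZDHHC15, while KDR fell by 0.64 (adjusted p = 0.0227 by edgeR). The part of these marker levels in the results below was not tested. In RNA of whole cultures, a change in every cell and a change in some of the cells cannot be told apart.

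Promoter windows of RefSeq (GRCh38.p14), reaching from 250 bases before the gene start to 50 bases after it, were found for 6 of the 10 members, 14 windows in all because FAS, CASP8, CFLAR and XAF1 have more than 1 annotated start. No window was used here for TNFRSF10A, TNFRSF10B, TNFRSF10D and CASP10. The first window of a gene is shown for TNFSF10 and XAF1, the members that rose most, and for CASP8, because a search for the interferon-stimulated response element found it in TNFSF10 and CASP8 alone among these 6 genes. Each run is written 5′ to 3′ on the strand of its gene, with 250 bases before the start and the first 10 bases of the transcript. Capitals mark matches to that element (GAAA, any 2 bases, then GAAA, on either strand) and to the gamma-activated site TTCNNNGAA.
TNFSF10 (chr3:172523421-172523680, minus strand): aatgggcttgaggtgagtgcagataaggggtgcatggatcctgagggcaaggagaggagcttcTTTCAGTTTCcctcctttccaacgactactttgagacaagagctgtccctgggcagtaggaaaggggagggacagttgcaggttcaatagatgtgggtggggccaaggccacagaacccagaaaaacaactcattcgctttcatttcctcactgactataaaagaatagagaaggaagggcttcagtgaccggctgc
CASP8 (chr2:201233213-201233472, plus strand): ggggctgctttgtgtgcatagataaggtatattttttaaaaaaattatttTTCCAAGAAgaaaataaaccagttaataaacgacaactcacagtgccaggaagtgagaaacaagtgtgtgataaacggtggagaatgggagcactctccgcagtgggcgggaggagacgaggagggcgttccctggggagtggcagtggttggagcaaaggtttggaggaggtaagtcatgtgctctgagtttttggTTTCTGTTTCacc
XAF1 (chr17:6755796-6756055, plus strand): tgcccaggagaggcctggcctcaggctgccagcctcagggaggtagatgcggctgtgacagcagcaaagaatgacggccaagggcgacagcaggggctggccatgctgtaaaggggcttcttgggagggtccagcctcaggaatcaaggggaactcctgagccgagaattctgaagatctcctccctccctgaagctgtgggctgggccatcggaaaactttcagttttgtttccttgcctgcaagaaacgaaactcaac

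The response element began 187 bases before the start of TNFSF10 and 3 bases before the first annotated start of CASP8, in both on the strand opposite to the gene. CASP8 also held the gamma-activated site, 200 bases before its start. The windows of FAS, FADD, CFLAR and XAF1 and the remaining windows of CASP8 held neither, which says only that these letters are not in those windows. Over 35116 promoter windows of the same length, 3.57% held the response element and 7.66% the gamma-activated site. These shares are per window, and a gene with more windows, such as CASP8 with 3, has more places for a match. The motif GGAATG, to which TEAD factors bind and which 14.03% of all windows held, was in none of the 14. A match is a description of the letters and no evidence of a bound factor.

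The ligand gene TNFSF10 (ENSG00000121858) lies on chromosome 3 from 172505508 to 172523507 on the minus strand (GRCh38). It had 62 and 59 counts in shCON against 1951 and 1447 in shZDHHC15. The levels were 3.40 and 3.50 CPM against 105 and 73.7 CPM, so both depleted samples were far above both controls, and they also differed from each other more than the controls did. The mean rose from 3.45 ± 0.0685 to 89.3 ± 22.0 CPM (SD, n = 2), and its log2 fold change was 4.69 ± 0.195 (SE, adjusted p = 1.42e-10 by edgeR). Only 0.196% of all genes tested had a larger rise. No other annotated gene overlapped its exons.

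XAF1 (ENSG00000132530) lies on chromosome 17 from 6755447 to 6775647 on the plus strand. It had 10 counts in each shCON sample and 592 and 590 counts in the shZDHHC15 samples. The level went from 0.571 ± 0.0313 to 30.9 ± 1.23 CPM (SD, n = 2), and its log2 fold change was 5.74 ± 0.231 (SE, adjusted p = 1.03e-10 by edgeR). It ranked 13 by rise among all genes tested, with TNFSF10 at rank 32. The shZDHHC15 samples were nearly equal, unlike those of TNFSF10. PRAL, an annotated transcript on the opposite strand, shares 2535 exon bases with XAF1 and had 0 counts in both shCON samples and 10 and 13 in the shZDHHC15 samples. Whether counting used the strand is not given in the sources used here, so reads of XAF1 and PRAL cannot be told apart.

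**Figure D1:**
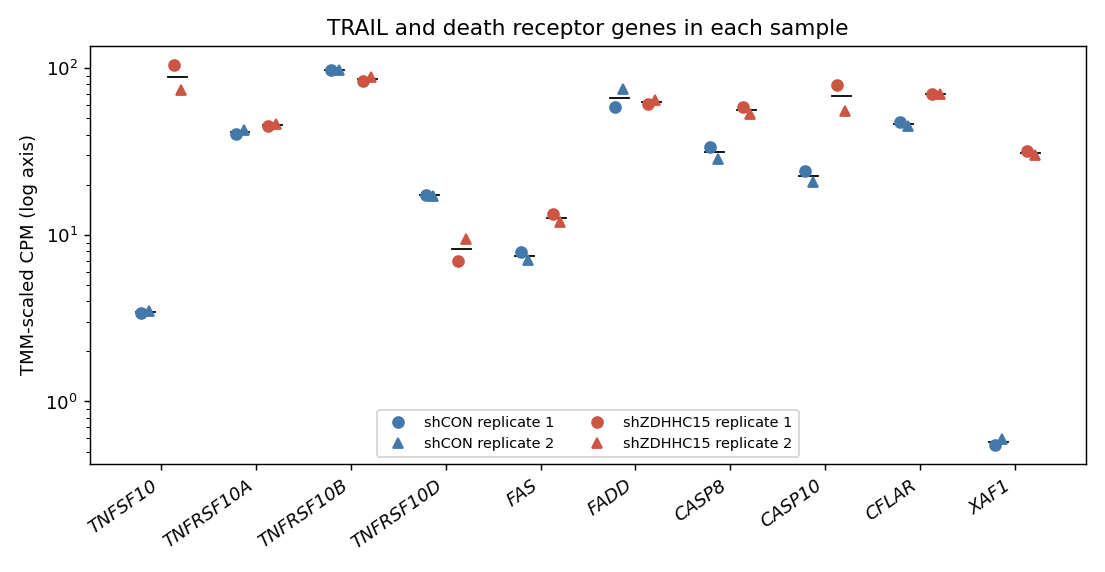
TMM-scaled CPM (log axis) of the 10 members in each of the 4 samples, with circles for replicate 1, triangles for replicate 2 and a bar at each group mean (n = 2). TNFSF10 and XAF1 show the widest gap between groups, from 3.45 to 89.3 and from 0.571 to 30.9 CPM, while the groups of FADD overlap.

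Of the receptors, TNFRSF10B (ENSG00000120889), which encodes a death receptor of TRAIL, was the most abundant. It lies on chromosome 8 from 23020133 to 23069179 on the minus strand and had 1780 and 1655 counts in shCON and 1558 and 1734 counts in shZDHHC15. After scaling, these were 97.6 and 98.1 CPM against 83.7 and 88.3 CPM, so that the depleted samples were slightly lower without overlap. The log2 fold change of -0.19 (95% interval -0.39 to 0.02) was not past the threshold (adjusted p = 0.135 by edgeR). Its exons share 67 bases with RHOBTB2 on the opposite strand.

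TNFRSF10A (ENSG00000104689; chromosome 8, 23190452 to 23225126, minus strand), which encodes the other TRAIL death receptor, had 732 and 722 counts in shCON and 834 and 915 counts in shZDHHC15. These were 40.2 and 42.8 CPM against 44.8 and 46.6 CPM, again close to each other. The log2 fold change was 0.14 (95% interval -0.09 to 0.37, adjusted p = 0.322 by edgeR). The antisense gene TNFRSF10A-AS1 and the noncoding gene AC100861.1 overlap its exons on the opposite strand, with at most 111 counts in a sample.

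TNFRSF10D (ENSG00000173530; chromosome 8, 23135588 to 23164030, minus strand), the decoy receptor gene between these in the genome, was the only member called lower. It had 317 and 290 counts in shCON against 129 and 186 in shZDHHC15. The controls were nearly equal (17.4 and 17.2 CPM), and both depleted samples were below them (6.93 and 9.48 CPM). The log2 fold change was -1.07 with a standard error of 0.169 (adjusted p = 1.54e-04 by edgeR), and 3.59% of all genes tested had a larger fall. The other decoy receptor gene of the cluster, TNFRSF10C, had 1 count in 1 shCON sample and 0 in the other 3 samples, so no difference was detectable at this depth.

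FAS (ENSG00000026103; chromosome 10, 88990582 to 89015785, plus strand) had 143 and 119 counts in shCON against 248 and 233 in shZDHHC15, and was the least abundant of the 4 receptor genes per length in shCON. It rose from 7.45 ± 0.558 to 12.6 ± 1.02 CPM (SD, n = 2), and its log2 fold change was 0.75 ± 0.169 (SE, adjusted p = 0.00237 by edgeR). ACTA2, on the opposite strand, shares 380 exon bases with FAS and had 80 and 60 counts in shCON and 114 and 128 counts in shZDHHC15, so part of either gene's reads could belong to the other. The ligand of this receptor, FASLG, had 0 counts in all 4 samples, which at these depths allows up to between 0.153 and 0.178 CPM.

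The genes of the signalling complex did not move alike. CASP10 (ENSG00000003400; chromosome 2, 201182881 to 201229406, plus strand), which encodes an initiator caspase, had 442 and 349 counts in shCON and 1487 and 1095 counts in shZDHHC15. It rose from 22.5 to 67.8 CPM on average, and its log2 fold change was 1.59 ± 0.156 (SE, adjusted p = 1.71e-06 by edgeR). Like TNFSF10, it was higher in shZDHHC15 replicate 1 (79.9 CPM) than in replicate 2 (55.8 CPM).

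CASP8 (ENSG00000064012; chromosome 2, 201233443 to 201287711, plus strand), the initiator caspase gene that lies next to it, had 617 and 483 counts in shCON and 1093 and 1044 counts in shZDHHC15. Its level rose from 31.2 ± 3.68 to 55.9 ± 3.90 CPM (SD, n = 2), and its log2 fold change was 0.84 ± 0.119 (SE, adjusted p = 6.01e-05 by edgeR). No exon of another annotated gene overlapped those of CASP8 or CASP10.

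CFLAR (ENSG00000003402; chromosome 2, 201116104 to 201176687, plus strand), the gene of the inhibitor c-FLIP, had 867 and 755 counts in shCON and 1305 and 1379 counts in shZDHHC15. Its level rose from 46.2 ± 1.98 to 70.2 ± 0.117 CPM (SD, n = 2), and its log2 fold change was 0.60 ± 0.103 (SE, adjusted p = 2.96e-04 by edgeR). The antisense gene CFLAR-AS1 shares 777 exon bases with CFLAR and had between 12 and 27 counts. The pseudogene IMPDH1P10 and the noncoding gene AC007283.1 also overlap its exons, with at most 2 counts.

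FADD (ENSG00000168040; chromosome 11, 70203163 to 70207390, plus strand), the adaptor gene, had 1074 and 1259 counts in shCON and 1130 and 1267 counts in shZDHHC15. At 58.9 and 74.6 CPM against 60.7 and 64.5 CPM the groups overlapped, and the depleted samples lay between the controls. The log2 fold change was -0.09 (95% interval -0.34 to 0.16, adjusted p = 0.572 by edgeR). Without shCON replicate 1 the value was -0.28 and passed the threshold (adjusted p = 0.0409 by edgeR), and without shCON replicate 2 it was 0.08. The antisense gene AP000879.1 overlaps FADD and had 0 counts.

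**Figure D2:**
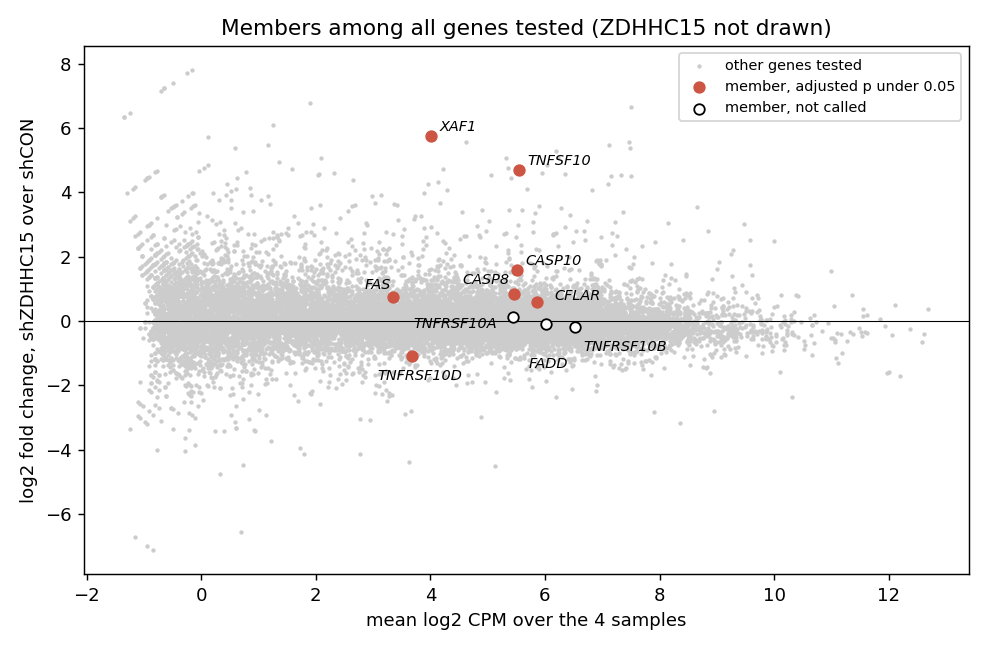
Log2 fold change of shZDHHC15 over shCON against the mean log2 CPM over the 4 samples for all 15817 genes tested except ZDHHC15, which lies off the scale (grey). Members with an adjusted p under 0.05 are filled in red and the others are open, with XAF1 at 5.74 and TNFSF10 at 4.69 near the upper edge and TNFRSF10D at -1.07 below the line.

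Levels of different genes were compared per length, as TPM (counts divided by gene length and scaled to the same total in each sample) from the length column of the table, which equals the joined length of all annotated exons of a gene and so understates genes with long rarely used exons, such as CFLAR with 22529 bases. On this scale the order of the members in shCON was FADD (122 TPM), TNFRSF10B (64.1), TNFRSF10A (47.5), TNFRSF10D (16.5), CASP8 (14.6), CASP10 (10.0), CFLAR (6.93), FAS (5.93), TNFSF10 (3.36) and XAF1 (0.291). Of neighbours in this order, CASP8 overlapped TNFRSF10D over the samples, as it had 16.2 and 13.0 TPM against 17.1 and 16.0 TPM. In shZDHHC15 cells FADD still led, with 124 TPM, and TNFSF10 came next, with 110 and 77.2 TPM in the 2 samples, both above the highest value of TNFRSF10B (62.3 TPM). CASP10 (38.3 and 26.7 TPM) and CASP8 (29.5 and 26.7 TPM) overlapped. TNFRSF10D came last, at 7.14 and 9.75 TPM.

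Ratios between genes within a sample do not depend on library size or scaling. Counts per kilobase of TNFSF10 over its receptor TNFRSF10B were 0.0521 and 0.0534 in the shCON samples and 1.86 and 1.24 in the shZDHHC15 samples. Per kilobase, the ligand transcript was thus below the receptor transcript in both controls and above it in both depleted samples. Before division by length, shZDHHC15 replicate 2 had fewer counts of TNFSF10 (1447) than of TNFRSF10B (1734). The crossing in that sample therefore depends on the gene lengths used. The difference of the mean log2 ratios was 4.85, with a pooled SD of 0.293. XAF1 over XIAP went from 0.0159 and 0.0210 to 0.823 and 0.800, a log2 difference of 5.47.

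TNFRSF10D over TNFRSF10B, decoy against death receptor, was 0.260 and 0.256 in shCON and 0.121 and 0.157 in shZDHHC15. The log2 difference of -0.90 had a pooled SD of 0.186. TNFRSF10A over TNFRSF10B was 0.719 and 0.763 in shCON and 0.936 and 0.923 in shZDHHC15, a log2 difference of 0.33 with a pooled SD of 0.0438. Neither death receptor gene passed the test by itself.

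CASP10 over CASP8 went from 0.683 and 0.689 to 1.30 and 1.00, a log2 difference of 0.73 with a pooled SD of 0.188. CFLAR over CASP8, inhibitor against initiator, was 0.452 and 0.502 in shCON and 0.384 and 0.425 in shZDHHC15. This was the smallest of the 6 differences, -0.24 on the log2 scale with a pooled SD of 0.106. The groups did not overlap in any of the 6 ratios. Several of these ratios share TNFRSF10B or CASP8, and the share of other gene pairs without overlap was not counted. An exact two-sided permutation test of 2 samples against 2 cannot give a p below 0.333, so it says nothing about these ratios, which are given as values with their spread.

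**Figure D3:**
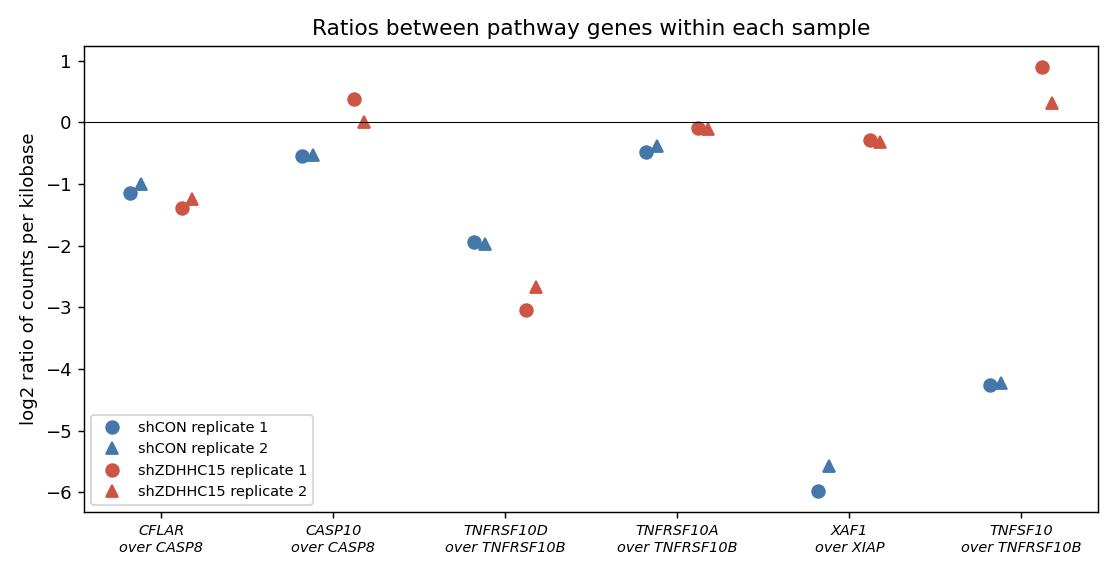
Log2 ratios of counts per kilobase between pathway genes within each sample, in shCON (blue) and shZDHHC15 (red), with circles for replicate 1 and triangles for replicate 2. TNFSF10 over TNFRSF10B moved from below 0 to above 0, a difference of 4.85, and CFLAR over CASP8 moved least, by -0.24.

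Position was shared by 6 of the members. CFLAR, CASP10 and CASP8 lie side by side on chromosome 2, and TNFRSF10B, TNFRSF10D and TNFRSF10A lie in a cluster on chromosome 8. All 3 chromosome 2 genes rose, while of 19 other genes tested within 1000 kb of that cluster 2 rose and 4 fell, with a median log2 fold change of -0.04. The nearest gene that rose was FAM126B (1.26, adjusted p = 3.28e-05 by edgeR), named here after its value was seen. NDUFB3, which lies between FAM126B and CFLAR, fell by 0.39 (adjusted p = 0.0230 by edgeR). On chromosome 8, 1 of 3 members fell, and of 28 other genes within the same distance 5 rose and 10 fell, with a median of -0.27. These counts stand beside the 21.7% of all genes called higher and the 20.3% called lower.

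The protein-coding genes whose 4 centred log2 levels were closest to those of TNFSF10 were IFIT3, TRANK1, IFIT1, CMPK2 and AKR1C1, at Euclidean distances of 0.148 to 0.211 among 12956 candidates. IFIT1, IFIT3 and CMPK2 are well-known interferon-stimulated genes, and AKR1C1 encodes an aldo-keto reductase. These genes were picked by their 4 levels. Their log2 fold changes (4.50 to 4.75) and their higher level in shZDHHC15 replicate 1 therefore follow from the choice. On the centred log2 scale, replicates 1 and 2 were at 2.48 and 2.03 for IFIT3 and at 2.40 and 2.09 for AKR1C1. With 4 samples, the likeness rests mostly on the difference between the groups.

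A wider list of 53 other genes of death receptor signalling was written for the comparison, and 46 of them could be tested. Of these, 16 were called higher, 9 lower and 21 neither, against 21.7% higher and 20.3% lower over all genes. The median log2 fold change was 0.05, near that of all genes (0.02), and its sign changed with the processing.

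Among the other ligands, TNF (0.04), LTB (0.07) and TNFSF15 (-0.02) were not called, and LTA, FASLG and TNFSF12 had too few counts to be tested. TNFSF14, which encodes the ligand LIGHT, had 1 and 2 counts in shCON and 10 and 12 counts in shZDHHC15. On its summed counts the ratio was 6.73 (exact 95% counting interval 2.02 to 35.1), and it was called higher (adjusted p = 0.0120 by edgeR), a call that was lost without shCON replicate 1 (0.133) or replicate 2 (0.0555). Its receptor gene TNFRSF14 had 4 and 8 against 22 and 18 counts, and its log2 fold change was 1.59 ± 0.534 (SE, adjusted p = 0.0262 by edgeR). That call was lost with no filter on low counts and with DESeq2 (adjusted p = 0.211), and without shCON replicate 1 or shZDHHC15 replicate 1 (0.230 and 0.118 by edgeR), and without shCON replicate 2 the log2 fold change was 2.21.

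Among the other receptors, 3 of the 6 tested rose and 2 fell, beside 21.7% higher and 20.3% lower over all genes tested. TNFRSF1A, which encodes the main receptor of tumour necrosis factor, rose by 0.44 (standard error 0.0966, adjusted p = 0.00209 by edgeR). TNFRSF25, a death domain receptor gene, had 106 and 82 counts in shCON and 174 and 230 in shZDHHC15 and rose by 0.98 (adjusted p = 0.00108 by edgeR). TNFRSF12A, the abundant receptor gene of the ligand TWEAK, fell from 488 ± 70.9 to 269 ± 39.6 CPM (SD, n = 2), and its log2 fold change was -0.86 ± 0.116 (SE, adjusted p = 3.84e-05 by edgeR).

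Of the 22 adaptors and regulators, 7 rose and 5 fell, beside 21.7% higher and 20.3% lower over all genes tested. TNFAIP3, which encodes the ubiquitin-editing protein A20, an inhibitor of death receptor and NF-kappaB signalling, fell most, from 11420 and 9939 counts to 4218 and 6037 counts. The log2 fold change was -1.19 (standard error 0.120, adjusted p = 2.23e-06 by edgeR). TRAF1, which encodes a receptor-associated adaptor, fell from 20.2 ± 1.31 to 10.7 ± 1.41 CPM (SD, n = 2), and its log2 fold change was -0.92 (adjusted p = 2.06e-04 by edgeR). BIRC2 and BIRC3, the genes of the ubiquitin ligases cIAP1 and cIAP2, rose by 0.37 and 0.34 (adjusted p = 0.00489 and 0.0373 by edgeR). The shCON samples of BIRC3 differed, at 106 and 77.5 CPM, against 117 and 116 CPM in shZDHHC15. RNF31 and RBCK1, subunit genes of the linear ubiquitin ligase, rose by 0.49 and 0.43, whereas SHARPIN, the gene of the remaining subunit, fell by 0.37.

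MLKL, which encodes the executioner of necroptosis, had 20 and 41 counts in shCON and 112 and 100 counts in shZDHHC15. It rose from 1.76 ± 0.943 to 5.55 ± 0.651 CPM (SD, n = 2), and its log2 fold change was 1.67 ± 0.306 (SE, adjusted p = 5.36e-04 by edgeR). The shCON samples differed from each other, and the value was 1.16 without shCON replicate 1 and 2.32 without shCON replicate 2, called higher in both. RIPK3, the gene of the kinase that activates MLKL, had 0 counts in all samples.

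Among the mitochondrial and execution steps, 4 of 13 genes rose and 2 fell, beside 21.7% higher and 20.3% lower over all genes tested. XIAP, the target of XAF1, was at 44.8 ± 6.28 and 52.0 ± 1.05 CPM (SD, n = 2), and its log2 fold change was 0.21 (95% interval -0.04 to 0.46, adjusted p = 0.160 by edgeR). Without shCON replicate 1 that value was 0.33 and passed the threshold (adjusted p = 0.0265 by edgeR). APAF1, the gene of the apoptosome scaffold, rose by 1.20 (adjusted p = 1.77e-05 by edgeR). BID, the gene of the protein through which caspases of the receptor complex reach mitochondria, rose by 0.42 (adjusted p = 0.0101 by edgeR). HTRA2, which encodes a mitochondrial protease that antagonises XIAP, fell by 0.77 (adjusted p = 1.90e-04 by edgeR). DIABLO, with a like role, is listed under 2 gene identifiers and is uncertain.

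**Figure D4:**
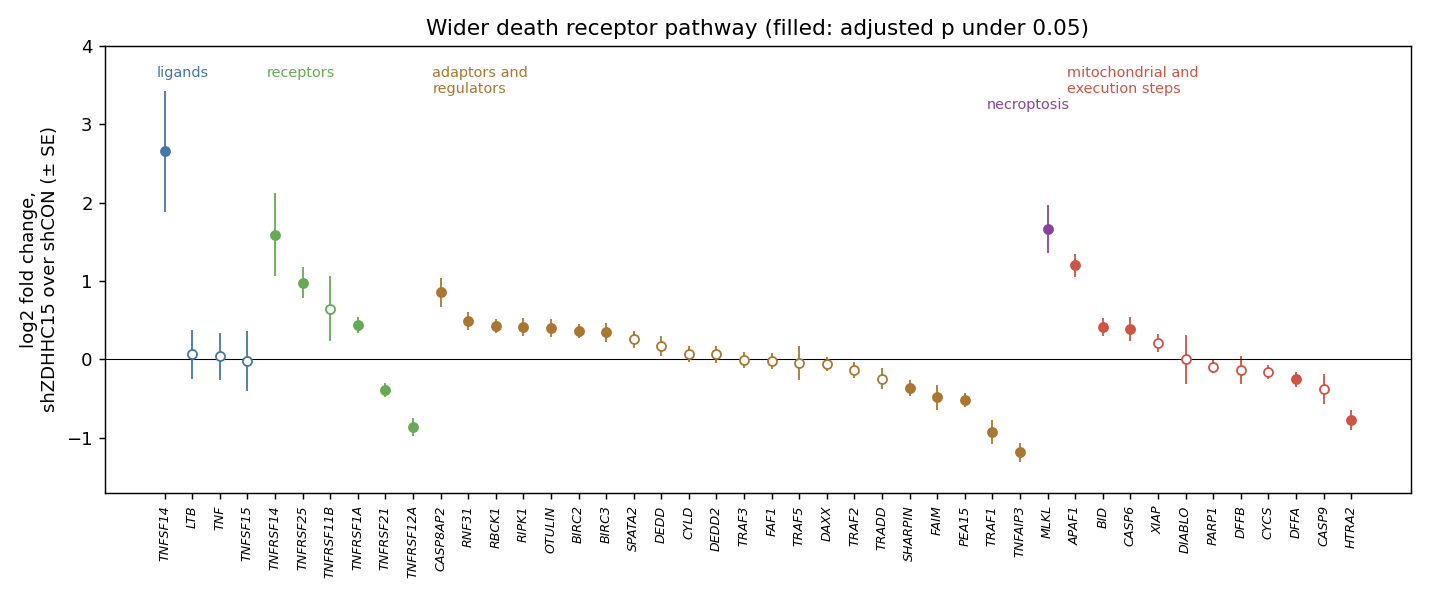
Log2 fold change (± SE) of tested genes of the wider list, grouped by role and ordered within each group, with filled points for an adjusted p under 0.05. TNFSF14 at 2.66, from 1 and 2 counts in shCON, stands highest and TNFAIP3 at -1.19 lowest.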

How the data were processed

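RNA of 4 HCC1954 samples was analysed, 2 of shCON and 2 of shZDHHC15, grouped by their titles. The authors deposited raw read counts per gene, not normalized. Libraries were made with the NEBNext Ultra kit. The submitters' processing notes name HISAT2, StringTie, SAMtools and hg38 without roles, and the counting tool and strand setting are not given in the sources used here. All 58735 gene identifiers matched GENCODE release 29 with equal starts and ends. No column of per-sample values was left out.

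Genes passing filterByExpr (15817) were tested across the whole table with edgeR 4.0.16 (R 4.3.3) using TMM factors, glmQLFit (without the legacy option) and glmQLFTest, adjusted by Benjamini-Hochberg at a threshold of 0.05. Promoter motifs were searched in all 14 RefSeq windows of 6 members. Standard errors came from the fold change and F statistic, and 95% intervals from a t distribution with the residual and median prior degrees of freedom. CPM used TMM-scaled library sizes. Ratios had 0.5 counts added and are given without a call. Exon overlaps came from the GENCODE annotation and shared stretches (at least 150 bases at 97% identity) from blastn 2.17.0, which found no such stretch beyond genes overlapping in place. DESeq2 1.42.0 and other scalings, filters, dispersions, a replicate block and leaving out samples were alternatives. The fit was tested on simulated counts, where it recovered 86% of 200 genes given a change.

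The members, lists, ratios and motifs were chosen with earlier results of these data known. Named genes are all members, the 3 largest rises and falls of the wider list, TNFRSF10C, FASLG, XIAP, and the 5 genes nearest to TNFSF10. Other genes of the wider list, and neighbours, were named after their values were seen. Some genes of the lists enter the counts but are not reported here by name or in a plot.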

Additional observations from a re-analysis of the deposited data

How the results depend on the processing

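Under 8 other settings of scaling, filter, dispersion, test or block, 6 members were called higher and 1 lower, and leaving out each sample in turn gave 6 higher and 1 to 2 lower, FADD being the added call. The same 7 members were called in every one of these fits. TNFSF10 lay between 4.41 and 4.92, CASP10 between 1.31 and 1.82 and TNFRSF10D between -1.32 and -0.87 with 1 sample left out, fits in which the lone sample is assumed to vary like the others. The sample numbers are not stated to pair the samples, and their deviations from the group means correlated at 0.0344 over 15817 genes. With the replicate block, 3723 genes were called higher and 3502 lower instead of 3427 and 3217, and 17 and 9 of the wider list, and no member call changed. With no filter on low counts, which tests 30168 genes, 2282 genes were called higher and 2350 lower, and 10 of the wider list were called higher instead of 16. Without 1 sample the wider list had 10 to 14 genes higher and 5 to 9 lower. Both lowest counts came without shZDHHC15 replicate 1. Among the fits without 1 sample, the counts over all genes were also lowest there, in both directions, and the cause was not tested. The median of the wider list lay between -0.02 and 0.13 over all alternatives. The 6 ratios kept their direction under each alternative. Of the wider list, TNFSF14, MLKL, TNFRSF14, TNFRSF12A, TRAF1, TNFAIP3 and XIAP were followed by name through the alternatives. Among these, TNFSF14 and TNFRSF14 lost their call under some alternatives, as given above. The other genes named outside the members, BIRC3 among them, were not followed one by one, so their calls may depend on the processing. Precision is limited by 2 samples per group and, for XAF1 in shCON, by 10 counts per sample.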
